A study of Homo sapiens with 12 samples.

Results

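The genes followed here were 10 genes of leukocyte actin control and receptor signalling, WAS, CORO1A, LCP1, HCLS1, RAC2, VAV1, ARHGDIB, LCP2, INPP5D and PTPN6. They were taken by symbol from the 56266 genes listed in each of 10 RNA-Seq libraries, and all 10 passed the filter that left 21543 genes for testing, 1 TPM or more in 2 or more libraries. TPM is a share of all transcripts in a library, corrected for transcript length, so levels of different genes can be set side by side.

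The study made hemogenic endothelial cells (HEs) and hematopoietic progenitor cells (HPCs) from human ESCs of the line H1 and from H1-GATA2-/-, a line grown from 1 clone in which a PGK-neomycin cassette disrupted exon 3 of both alleles of GATA2 with the help of TALENs. All cells except the undifferentiated hESCs had been cultured on OP9, a mouse bone marrow stromal line. HEs were sorted on day 8 as cells with CD34 and CD31 but without CD43, and HPCs on day 9 as cells with CD34 and CD43. The groups were WT HEs, GATA2-/- HEs, WT HPCs, GATA2-/- HPCs and GATA2-/- hESCs, each with 2 libraries, and WT hESCs were not analysed here. Nothing in the labels said whether the 2 libraries of a group came from separate cultures, so p-values measure only the spread between these libraries. In the HE and HPC files, the column names of replicate 2 alone carry a tag whose meaning was not stated.

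Blood cells run their actin skeleton with forms of common proteins that most other cells do not make. Signals from surface receptors reach the exchange factor VAV1 through adaptors such as LCP2, and VAV1 loads the small GTPase RAC2 with GTP. ARHGDIB holds such GTPases inactive in the cytosol. The WAS protein links active small GTPases, not RAC2 in particular, to branched actin. CORO1A, LCP1 and HCLS1 bind the filaments, while INPP5D and PTPN6 are phosphatases that damp the same signals. During the endothelial to hematopoietic transition, flat endothelial cells of the HE round up and leave as HPCs.

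Promoters of several members carry letters that match motifs of blood transcription factors, and the stretches with such letters closest to the start are shown because all 10 members had higher fitted levels in HPCs than in HEs. RefSeq windows (GRCh38.p14) from 250 bases before to 50 bases after a transcription start were at hand for 9 of the 10 genes, all but RAC2, in 13 windows. GAGGAAG, an ETS-type motif of the form bound by PU.1, the product of SPI1, was searched on both strands and was found in 5 windows, 1 each of INPP5D, LCP2, LCP1, VAV1 and PTPN6. It was found in 13.6% of all 35116 windows. TGTGGT, the RUNX motif, was in 2 of the 13 windows, of WAS and LCP1, and in 13.1% of all windows. The motif of GATA factors, AGATAA, was in 1 window of PTPN6 and in 10.3% of all. No copy of one motif overlapped a copy of another in the member windows, and the letters were chosen with these windows in view, so that the counts are a description without a test. The 120 bases before the start are printed 5′ to 3′ on the strand of the gene, with motif copies on either strand in capitals, for LCP2 (chr5:170297778-170297897, minus strand), VAV1 (chr19:6772588-6772707, plus strand), INPP5D (chr2:233060222-233060341, plus strand), LCP1 (chr13:46182178-46182297, minus strand) and 1 of the 2 WAS windows (chrX:48683679-48683798, plus strand).
LCP2: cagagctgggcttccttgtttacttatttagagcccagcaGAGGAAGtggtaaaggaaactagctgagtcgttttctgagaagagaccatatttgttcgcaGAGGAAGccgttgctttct
VAV1: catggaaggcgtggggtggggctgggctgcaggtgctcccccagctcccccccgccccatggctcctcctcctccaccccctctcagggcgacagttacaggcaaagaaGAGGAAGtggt
INPP5D: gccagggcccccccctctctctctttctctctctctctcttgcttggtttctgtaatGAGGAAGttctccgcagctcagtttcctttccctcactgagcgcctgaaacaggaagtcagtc
LCP1: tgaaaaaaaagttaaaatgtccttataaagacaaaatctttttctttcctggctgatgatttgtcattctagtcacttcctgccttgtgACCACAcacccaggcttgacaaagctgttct
WAS: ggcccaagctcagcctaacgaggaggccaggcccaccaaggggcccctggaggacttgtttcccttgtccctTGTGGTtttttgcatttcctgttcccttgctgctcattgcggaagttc
The capitals in LCP2, VAV1 and INPP5D are the ETS-type motif, starting 80 and 19, 11 and 63 bases before the start. Those in WAS and, as the opposite strand, in LCP1 are the RUNX motif, starting 48 and 31 bases before the start. LCP1 held its ETS-type copy farther out, 193 bases before the start, and the copy of PTPN6 lay 25 bases after the start. A match is not shown to be a binding site. Of the 5 genes with the ETS-type motif, LCP1 and PTPN6 passed the test of the HE to HPC rise given below. LCP2, VAV1 and INPP5D did not pass it in either genotype.

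The sorted cells were checked against markers before the members were read. CD43 itself (SPN), the gate between the stages, stood at 1.76 to 8.81 TPM in the 4 HE libraries and at 98.0 to 107.9 TPM in the 4 HPC libraries. PTPRC (CD45), the common leukocyte phosphatase, was listed at 0 in every HE library and reached no more than 3.09 TPM in any HPC library. The summed TPM of 10 endothelial markers was 5076 to 6418 in HEs and 1119 to 1525 in HPCs, and that of 11 pan-hematopoietic markers was 308 to 425 in HEs and 1420 to 2035 in HPCs. Of 9 macrophage and granulocyte markers, CD14, ELANE and C1QA were listed at 0 in all 4 HPC libraries. The 9 together summed to 15.8 to 24.8 TPM in HEs and 91.7 to 129 TPM in HPCs. The fitted HE to HPC difference was above 0 in both genotypes for all 5 that could be tested. Gene-level GATA2 TPM was 84 to 112 in GATA2-/- HPCs and 204 to 290 in WT HPCs. In HEs it was not lower, at 110.9 and 94.1 TPM in GATA2-/- against 106.8 and 78.0 TPM in WT. Gene-level GATA2 TPM can count RNA from the disrupted allele and does not check the labels. The 7 stromal markers summed to 369 to 682 TPM in HEs and 84.1 to 206 TPM in HPCs, and the 10 erythroid markers to 25.6 to 119 TPM and 5017 to 16336 TPM. How far these shifts carry the rises below was not tested. In bulk samples, fewer cells that express a gene and less RNA per cell cannot be told apart.

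Most of these genes were already on in HEs, which were sorted without CD43. In GATA2-/- cells, 6 of the 10 genes rose from hESCs to HEs (LCP2, VAV1, ARHGDIB, RAC2, INPP5D and HCLS1), beside 13.9% of all genes tested (limma on log2(TPM + 1), Benjamini-Hochberg adjusted p under 0.05). The size went from 1.53 on the log2 scale for INPP5D to 6.27 for ARHGDIB. CORO1A, LCP1 and PTPN6 gave values in the opposite direction, -1.49, -1.88 and -0.79, whose adjusted p of 0.0596, 0.0505 and 0.0514 did not pass. WAS differed by 0.94 (adjusted p = 0.14). From hESCs to HPCs of the same line, 8 of the 10 rose, beside 14.2% of all genes, and CORO1A and LCP1 again did not pass, with differences of 0.53 and 0.66. These comparisons share the hESC libraries. The same genes also differed in how far HE levels had come, since the WT HE mean was 9.65% to 27.5% of the WT HPC mean for LCP1, WAS, PTPN6, CORO1A, RAC2 and HCLS1, and 55.3% to 75.4% for ARHGDIB, VAV1, LCP2 and INPP5D.

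HEs were sorted on day 8 and HPCs on day 9 through different gates, so stage, day and gate cannot be told apart. From HEs to HPCs the same 5 genes rose in both genotypes, WAS, LCP1, PTPN6, CORO1A and RAC2. That is 5 of 10 members in WT, where 3.32% of all genes tested rose, and 5 of 10 in GATA2-/-, where 5.5% rose, and the 2 comparisons share no library although 1 fit gave them a common estimate of the spread. All 10 fitted differences were above 0 in each genotype. Their median was 1.87 on the log2 scale in WT and 1.15 in GATA2-/-, against medians of -0.01 and 0.03 over all genes. Both HPC libraries lay above both HE libraries for 9 of 10 genes in WT (20.2% of all genes) and for 9 of 10 in GATA2-/- (26.6% of all genes), the exceptions being INPP5D in WT and VAV1 in GATA2-/-. WAS and PTPN6 passed under 17 of 18 alternative settings in each genotype, all but the fit on the 4 libraries of a comparison, where no gene of the whole table passed. The other 3 rested on fewer settings. The WT count of 5 fell to 3 without WT HE replicate 2, to 3 without WT HPC replicate 1 and to 2 without WT HPC replicate 2. The GATA2-/- count of 5 fell to 3 without GATA2-/- HE replicate 1, and to 2 without GATA2-/- HE replicate 2, without either WT HPC library or without GATA2-/- HPC replicate 2. The replicate left out of a group leaves a single library there, which is then taken to vary like the rest.

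**Figure D1:**
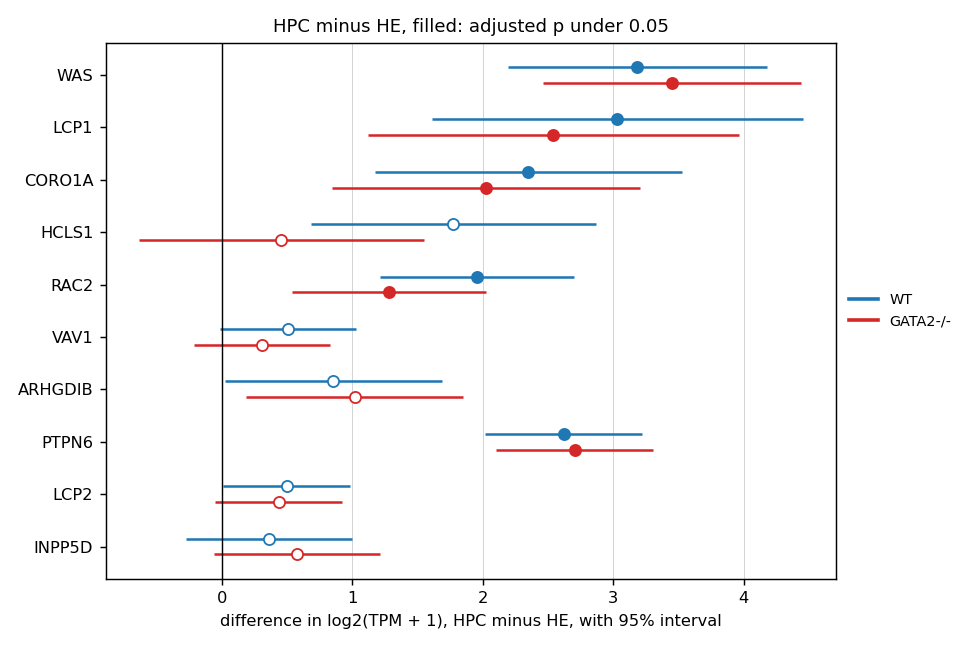
Difference in log2(TPM + 1) between HPCs and HEs for each gene, in WT (blue) and GATA2-/- (red), with the limma 95% interval as a line and filled points for an adjusted p under 0.05. The 5 genes that rose lie at 1.28 to 3.45, and VAV1, LCP2 and INPP5D lie at 0.31 to 0.58 in both genotypes.

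Among the actin regulators, WAS (ENSG00000015285, chrX:48534985-48549822, plus strand) encodes the hematopoietic activator of the Arp2/3 complex, the gene mutated in Wiskott-Aldrich syndrome. Coordinates of genes are those of GENCODE v44 lifted to GRCh37 (hg19). WAS stood at 8.24 and 4.11 TPM in WT HEs and at 58.4 and 64.8 TPM in WT HPCs, and at 2.41 and 3.75 TPM in GATA2-/- HEs and 29.4 and 62.7 TPM in GATA2-/- HPCs. Every HPC library was above every HE library, and the GATA2-/- HPC libraries lay far apart. The log2 difference was 3.19 ± 0.44 (SE) in WT, with an adjusted p of 0.0025, and 3.45 ± 0.44 in GATA2-/-, with an adjusted p of 0.00139. On the TPM scale the ratio of means was 9.97 in WT and 14.9 in GATA2-/-.

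LCP1 (ENSG00000136167, chr13:46700055-46786006, minus strand), or L-plastin, bundles actin filaments in leukocytes. It was at 3.67 and 1.16 TPM in WT HEs and at 26.7 and 23.4 TPM in WT HPCs, and at 2.42 and 2.22 TPM in GATA2-/- HEs and 11.5 and 28.8 TPM in GATA2-/- HPCs. The difference was 3.03 ± 0.63 in WT (limma adjusted p = 0.0171) and 2.54 ± 0.63 in GATA2-/- (adjusted p = 0.0303). Undifferentiated GATA2-/- hESCs held 21.4 and 5.7 TPM, so that LCP1 was lower in all 4 HE libraries than in either hESC library and 1 hESC library was within the range of the HPC libraries.

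CORO1A (ENSG00000102879, chr16:30194148-30200397, plus strand) encodes coronin 1A, an actin-binding protein that works with Arp2/3. The gene was listed at 12.7 and 6.19 TPM in WT HEs, 50.2 and 48.8 in WT HPCs, 9.54 and 3.27 in GATA2-/- HEs and 16.9 and 40.4 in GATA2-/- HPCs. It rose by 2.35 ± 0.52 in WT (limma adjusted p = 0.0229) and by 2.02 ± 0.52 in GATA2-/- (adjusted p = 0.0356), and passed under 10 and 8 of the 18 alternatives. Like LCP1 it was present in hESCs, at 16.0 TPM or more in both libraries, above every HE library.

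HCLS1 (ENSG00000180353, chr3:121350246-121379774, minus strand) encodes HS1, the hematopoietic relative of cortactin, which steadies branched actin. WT HEs had 8.15 and 11.3 TPM and WT HPCs 38.3 and 32.6 TPM, while GATA2-/- HEs had 11.6 and 12.8 TPM and GATA2-/- HPCs 16.2 and 18.1 TPM. The groups did not overlap in either genotype. The difference of 1.78 ± 0.48 in WT missed the threshold (limma adjusted p = 0.0515) and passed under 5 of the 18 alternatives, and that of 0.46 ± 0.48 in GATA2-/- did not pass under any (adjusted p = 0.60). The HE mean was 27.5% of the HPC mean in WT and 71.2% in GATA2-/-.

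In the GTPase branch, RAC2 (ENSG00000128340, chr22:37621310-37655634, minus strand) encodes the GTPase itself, the blood form of RAC. RAC2 was at 49.3 and 61.9 TPM in WT HEs, 214.6 and 219.8 TPM in WT HPCs, 62.8 and 40.5 TPM in GATA2-/- HEs and 113.6 and 135.4 TPM in GATA2-/- HPCs. It rose by 1.96 ± 0.33 in WT (limma adjusted p = 0.00655) and by 1.28 ± 0.33 in GATA2-/- (adjusted p = 0.0347). The call passed under 15 of 18 alternatives in WT and under 6 of 18 in GATA2-/-, where leaving out any 1 HE or HPC library ended it. In WT it was lost without WT HE replicate 1 or WT HPC replicate 2. hESCs had 2.07 and 5.07 TPM.

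VAV1 (ENSG00000141968, chr19:6772719-6857377, plus strand) encodes the exchange factor for RAC in blood cells. TPM values were 76.9 and 67.5 in WT HEs, 120.2 and 87.7 in WT HPCs, 55.2 and 45.9 in GATA2-/- HEs and 72.9 and 53.8 in GATA2-/- HPCs, against 2.50 and 3.02 in hESCs. The HE to HPC differences of 0.51 ± 0.23 and 0.31 ± 0.23 did not pass (limma adjusted p = 0.24 and 0.45). The gain from hESCs to HEs was 3.78 ± 0.23 (adjusted p = 1.03e-05).

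ARHGDIB (ENSG00000111348, chr12:15094965-15114662, minus strand), the GDP dissociation inhibitor of blood cells, had the highest level of the 10 in every HE and HPC group. WT HEs held 397.5 and 456.8 TPM and WT HPCs 803.9 and 739.6 TPM, and GATA2-/- HEs held 231.0 and 315.0 TPM and GATA2-/- HPCs 539.9 and 554.8 TPM. Both HPC libraries exceeded both HE libraries in each genotype, by 0.85 ± 0.37 and 1.02 ± 0.37 on the log2 scale, with limma adjusted p of 0.21 and 0.11. In hESCs it stood at 4.63 and 1.19 TPM.

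Among the signalling proteins, LCP2 (ENSG00000043462, chr5:169673237-169724819, minus strand) encodes SLP-76, the adaptor that brings VAV1 to activated receptors. It went from 0.23 and 0.31 TPM in hESCs to 92.4 and 67.5 TPM in GATA2-/- HEs, a difference of 5.98 ± 0.21 (limma adjusted p = 7.45e-07). WT HEs had 95.8 and 72.8 TPM. HPCs were only a little higher, at 111.8 and 125.1 TPM in WT and 101.0 and 113.9 TPM in GATA2-/-, and neither difference, 0.50 ± 0.21 and 0.44 ± 0.21, passed (adjusted p = 0.21 and 0.24).

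INPP5D (ENSG00000168918, chr2:233924677-234116549, plus strand) encodes SHIP1, a lipid phosphatase that removes the product of PI3 kinase. WT HEs stood at 40.2 and 44.8 TPM and WT HPCs at 69.6 and 43.1 TPM, so that 1 HPC library lay between the HE libraries. GATA2-/- HEs stood at 26.9 and 40.4 TPM and GATA2-/- HPCs at 55.4 and 44.4 TPM. The differences were 0.36 ± 0.28 and 0.58 ± 0.28 and did not pass (limma adjusted p = 0.52 and 0.23).

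PTPN6 (ENSG00000111679, chr12:7055631-7070479, plus strand) encodes SHP-1, a tyrosine phosphatase recruited by inhibitory receptors. It was at 29.0 and 26.5 TPM in WT HEs, 203.6 and 151.0 TPM in WT HPCs, 15.6 and 11.5 TPM in GATA2-/- HEs and 76.8 and 112.5 TPM in GATA2-/- HPCs. Of the 10 genes it had the smallest adjusted p in both genotypes, 0.000742 in WT and 0.000511 in GATA2-/- (limma), with differences of 2.62 ± 0.27 and 2.70 ± 0.27. Its hESC values of 28.2 and 20.4 TPM overlapped those of WT HEs and lay above both GATA2-/- HE libraries.

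The order of the levels changed between the stages. In WT HEs the means ran from ARHGDIB (427.1 TPM) through LCP2 (84.3), VAV1 (72.2), RAC2 (55.6), INPP5D (42.5) and PTPN6 (27.7) to HCLS1 (9.73), CORO1A (9.42), WAS (6.17) and LCP1 (2.42). Of those neighbours, the libraries of LCP2 and VAV1, of HCLS1 and CORO1A, and of CORO1A and WAS overlapped. In WT HPCs RAC2 (217.2 TPM) and PTPN6 (177.3) came directly after ARHGDIB (771.7), followed by LCP2 (118.5), VAV1 (104.0), WAS (61.6), INPP5D (56.3), CORO1A (49.5), HCLS1 (35.4) and LCP1 (25.0). There the neighbours LCP2 and VAV1, WAS and INPP5D, and INPP5D and CORO1A overlapped.

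Whether the rise itself differed between the genotypes was tested as the difference of the differences. The GATA2-/- line came from 1 clone, so in every comparison of genotypes the loss of GATA2 and other traits of that clone cannot be told apart. No member and none of the 21543 genes passed (0.0%), and at an unadjusted p under 0.05 limma gave 851 higher and 430 lower genes (5.95%) but 0 members. The intervals were wide, so that a similar rise was not shown. HCLS1 had the largest value, a rise smaller by 1.32 in GATA2-/- (95% interval -2.86 to 0.22, adjusted p = 0.88), and RAC2 came next with -0.68 (-1.73 to 0.37). PTPN6, with the narrowest spread of the 5 that rose, gave 0.09 (-0.77 to 0.94).

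Between genotypes, most fitted levels of the 10 genes lay below WT in GATA2-/- cells, and no single gene passed the test. In HPCs all 10 fitted differences were below 0, as were 41.7% of all genes, with a median of -0.61 against 0.05 over all genes. None passed, beside 0.0325% of all genes lower, while 3 (PTPN6, VAV1 and RAC2) had an unadjusted p under 0.05, as 8.94% of all genes did in either direction. Both GATA2-/- HPC libraries lay below both WT HPC libraries for 6 of the 10 genes (13.0% of all genes), CORO1A, RAC2, VAV1, ARHGDIB, PTPN6 and HCLS1. PTPN6 differed by -0.91 ± 0.27 (limma adjusted p = 0.34), HCLS1 by -1.01 ± 0.48 (0.59), CORO1A by -0.89 ± 0.52 (0.67), RAC2 by -0.80 ± 0.33 (0.51), VAV1 by -0.70 ± 0.23 (0.40) and ARHGDIB by -0.49 ± 0.37 (0.72). WAS and LCP1 gave values above 0 without GATA2-/- HPC replicate 1 (0.03 and 0.20), and INPP5D did so without WT HPC replicate 1 (0.20) or GATA2-/- HPC replicate 2 (0.02). The median of -0.61 went to -0.98 without GATA2-/- HPC replicate 2, to -0.39 without GATA2-/- HPC replicate 1 and to -0.51 after TPM was rescaled without mitochondrial and globin genes. Mitochondrial genes held 14.8% and 15.1% of TPM in GATA2-/- HPCs and 8.66% and 9.61% in WT HPCs, and the 11 pan-hematopoietic markers summed to 1420 and 1832 TPM against 1987 and 2035 TPM. Of these sums ITGA2B alone was 736 and 1140 TPM against 1147 and 1258 TPM. The means of SPN (102 against 106 TPM) and IKZF1 (26.9 against 26.7 TPM) lay close. Among the 10 of these markers tested, 7 fitted differences were below 0 and 3 above, and none passed. The 7 megakaryocyte markers summed to 202 and 272 TPM against 362 and 457 TPM, and none of those 7 was at 0 in both libraries of either group. Their part in the differences was not tested.

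In HEs, 8 of 10 differences were below 0, as were 50.9% of all genes, and the median was -0.43. None passed, beside 0.0139% of all genes lower, and only PTPN6 had an unadjusted p under 0.05 (4.85% of all genes did), with -0.99 ± 0.27 (limma adjusted p = 0.65). PTPN6, WAS, VAV1 and ARHGDIB did not overlap between the genotypes, 4 of 10 lower against 16.5% of all genes. HCLS1 went the other way, at 11.6 and 12.8 TPM in GATA2-/- HEs against 8.15 and 11.3 TPM in WT HEs. The share of all genes with both GATA2-/- HE libraries above both WT HE libraries was not counted, so no weight is put on that order. The median moved to -0.14 without GATA2-/- HE replicate 2. CORO1A, RAC2 and LCP2 then took values above 0 (0.089, 0.18 and 0.14), as RAC2 did without WT HE replicate 2 (0.03) and LCP2 without WT HE replicate 1 (0.12), and LCP1 went from 0.06 to -0.49 without WT HE replicate 2. The 11 pan-hematopoietic markers summed to 308 and 346 TPM in GATA2-/- HEs and 421 and 425 TPM in WT HEs, with PTPRC and CD48 listed at 0 in all 4. The 10 erythroid markers summed to 25.6 and 33.7 TPM against 75.2 and 119 TPM, and the 7 megakaryocyte markers to 25.2 and 34.6 TPM against 56.5 and 65.9 TPM. PPBP was listed at 0 in all 4 libraries. Of the 7 megakaryocyte markers 1 passed as lower in GATA2-/- HEs, and no pan-hematopoietic or erythroid marker passed. At a limma unadjusted p under 0.05 were 3 of 7 megakaryocyte, 6 of 10 erythroid and 3 of 10 tested pan-hematopoietic markers. The part of these markers in the differences of the members was not tested.

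**Figure D2:**
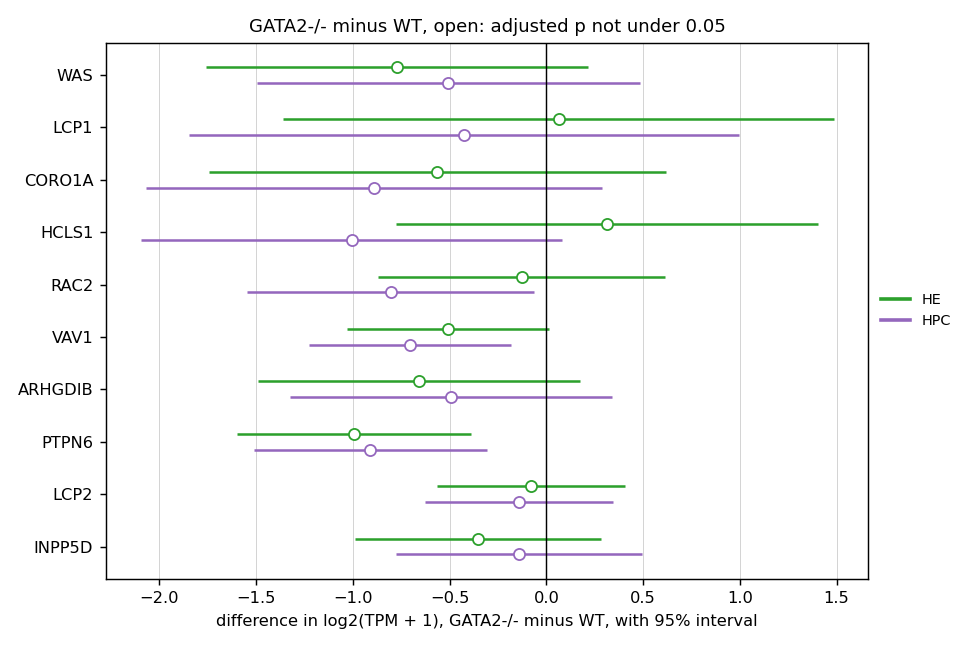
Difference in log2(TPM + 1) between GATA2-/- and WT for each gene, in HEs (green) and HPCs (purple), with the limma 95% interval as a line and open points because no adjusted p was under 0.05. All 10 HPC points and 8 of 10 HE points lie left of 0, and HCLS1 lies right of 0 in HEs (0.31) and left of it in HPCs (-1.01).

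Most members have relatives in wide use in other tissues. The exception is LCP2, whose relative BLNK is an adaptor of B cells and could not be tested. Of 15 relatives 14 could be tested. From HE to HPC 0 rose in either genotype, beside 3.32% of all genes that rose in WT and 5.5% in GATA2-/-. With only 14 relatives, 0 lies near those shares and does not set the relatives apart from other genes. In WT 3 fell and in GATA2-/- 4, beside 6.59% and 7.24% of all genes that fell. Fitted differences were above 0 for 5 of the 14 in WT and 6 in GATA2-/-, with PLS1 highest at 1.04 and 1.72 (limma adjusted p = 0.33 and 0.081). Cortactin (CTTN), the relative of HCLS1, fell by 2.89 in WT and by 2.55 in GATA2-/- on the log2 scale, from 159.3 and 135.5 TPM in WT HEs to 31.5 and 11.2 TPM in WT HPCs (limma adjusted p = 0.00262 and 0.00383). RAC1 fell by 0.65 and 0.70 (adjusted p = 0.0204 and 0.0123). PLS3, a plastin of other tissues, passed in WT only (-1.58, adjusted p = 0.0138, against -1.10 and 0.051), and ARHGDIA and CORO1B passed in GATA2-/- only (-0.88 and -0.78). The difference between the genotypes did not pass for PLS3 (adjusted p = 0.93), ARHGDIA (0.93) or CORO1B (0.84).

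In most families the blood form held a larger share in HPCs than in HEs. HCLS1 was 6.29% of the summed TPM of HCLS1 and CTTN in WT HEs and 64.6% in WT HPCs, and 6.64% and 37.2% in GATA2-/- cells. For LCP1 within the plastins the share went from 3.51% to 50.6% in WT and from 3.51% to 34.1% in GATA2-/-. RAC2 made up 14.8% and 46.5% of the RAC family in WT HEs and HPCs, and 13.3% and 33.4% in GATA2-/-. In 8 of the 10 families the share was higher in both HPC libraries than in both HE libraries, in WT and again in GATA2-/-. The others were INPP5D, whose share beside INPPL1 was 36.3% in WT HEs and 31.7% in WT HPCs, and LCP2, whose relative BLNK was listed at 0 in all HE and HPC libraries. CORO1A remained the smaller part of its family throughout, at 16.0% in WT HPCs and at 6.10% and 13.9% in the GATA2-/- HPC libraries. In hESCs the mean share was above that in GATA2-/- HEs for CORO1A (11.9% against 2.37%), LCP1 (7.69% against 3.51%) and PTPN6 (32.0% against 24.2%). It was below for the other families. The shares reuse the TPM of the members, and no such count was made over other gene families.

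**Figure D3:**
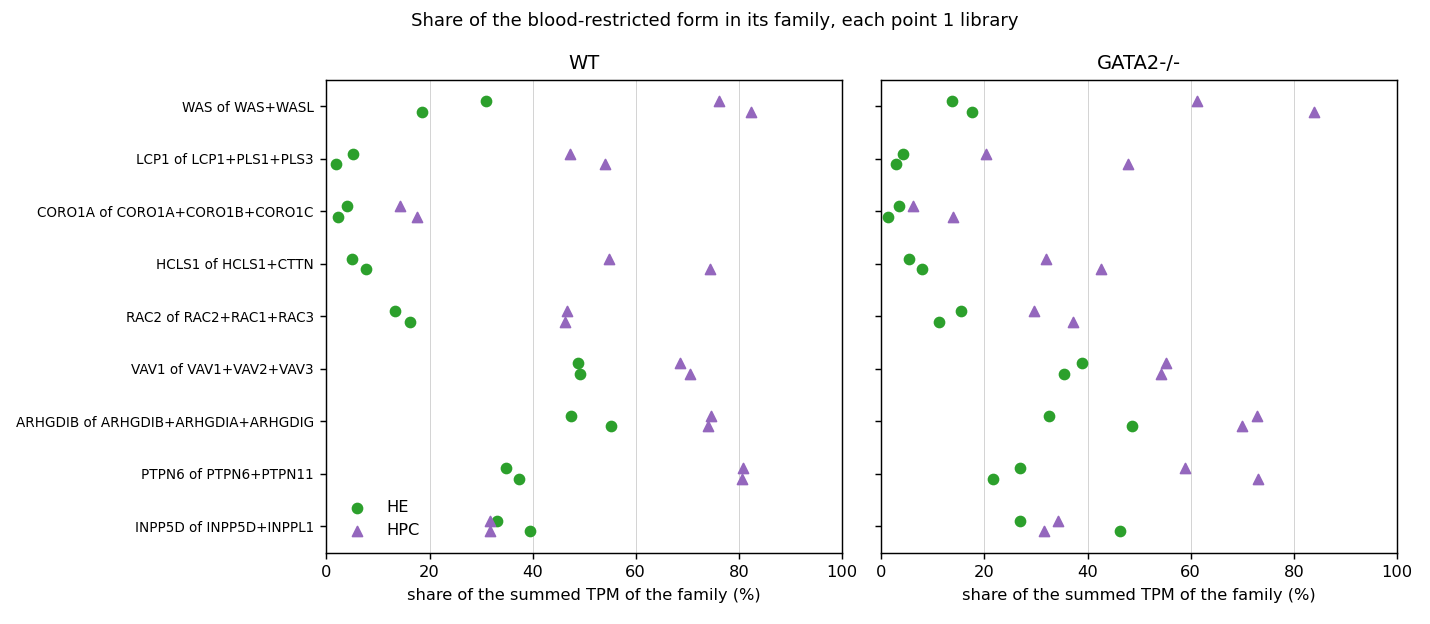
Share (%) of the member in the summed TPM of its family, with each library a point (green circles HEs, purple triangles HPCs), WT on the left and GATA2-/- on the right. The triangles lie right of the circles for 8 families in each panel, and INPP5D shows no such gap. LCP2 is left out because BLNK was listed at 0.

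The rest of the machinery moved unevenly. Over all genes tested, 3.32% rose and 6.59% fell in WT, and 5.5% rose and 7.24% fell in GATA2-/-. Of 29 further receptor signalling genes tested, 13 rose and 1 fell from WT HE to WT HPC, and 9 rose and 1 fell in GATA2-/-. FYB, an adaptor that binds LCP2, rose most, from 0.19 and 0.15 TPM to 28.6 and 20.2 TPM in WT (log2 difference 4.42 ± 0.35, limma adjusted p = 0.000374), and reached 9.37 and 13.3 TPM in GATA2-/- HPCs from a listed 0 in both HE libraries. TYROBP, a signalling chain of myeloid receptors, went from 3.85 and 9.66 TPM to 123.7 and 166.7 TPM in WT (4.33 ± 0.47, limma adjusted p = 0.000909). The gene that fell was SKAP1, an adaptor known from T cells, by 1.51 (adjusted p = 0.0455). Of 23 further actin genes, 6 rose and 2 fell in WT and 5 rose and 4 fell in GATA2-/-. ABI3, a subunit of the WAVE complex, fell by 4.10 in WT from 39.6 and 57.9 TPM to 3.33 and 0.89 TPM (limma adjusted p = 0.000855), and CFL1, which severs filaments in all cells, fell by 0.59 (adjusted p = 0.0204). The medians over the signalling and actin lists were 1.13 and 0.24 in WT and 0.77 and 0.25 in GATA2-/-. No gene of either list passed between the genotypes in HEs or in HPCs. At a limma unadjusted p under 0.05 were 3 and 5 of the 29 signalling genes and 1 and 2 of the 23 actin genes. Over all genes those shares were 4.85% in HEs and 8.94% in HPCs.

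Over the 10 libraries, the genes whose log2(TPM + 1) followed the mean z score of the members most closely, among 11914 genes that averaged 5 TPM or more, were PTPN7 (Pearson r = 0.992), ZFP36 (0.991), SELP (0.990), ARHGAP9 (0.987) and CMTM5 (0.986). PTPN7, a leukocyte phosphatase of MAP kinases, had means of 0.87 TPM in hESCs, 8.78 in WT HEs, 5.77 in GATA2-/- HEs, 39.5 in WT HPCs and 20.0 in GATA2-/- HPCs. The libraries share their stage, so r mainly orders genes with steps at the same stages. Each member was also set against the mean of the other 9, and r was highest for WAS (0.94) and RAC2 (0.94) and lowest for LCP1 (0.34) and CORO1A (0.46). Both of the latter were present in hESCs, at means of 13.6 and 18.0 TPM. So were PTPN6 (24.3 TPM, r = 0.78) and INPP5D (10.8 TPM, r = 0.86), and the reason for the low r was not tested.

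SPI1, whose product PU.1 is a blood factor with a motif that matches the ETS-type letters printed in capitals for LCP2, VAV1 and INPP5D, was at 35.8 and 22.2 TPM in WT HEs and 6.87 and 2.41 TPM in GATA2-/- HEs, and at 194.8 and 150.8 TPM in WT HPCs and 81.0 and 117.8 TPM in GATA2-/- HPCs. It rose by 2.56 in WT and 4.25 in GATA2-/- (limma adjusted p = 0.00564 and 0.000498), and the difference of these rises was 1.69 (adjusted p = 0.73). RUNX1 rose by 1.81 and 3.24 (adjusted p = 0.0471 and 0.00299). No measurement here ties either factor to a member.

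Neighbouring and related genes limit a few values. The antisense gene CPB2-AS1 covers 19.0% of the exonic bases of LCP1 and CORO1A-AS1 covers 11.1% of those of CORO1A, and because the use of strand in the counting was not stated, reads of a gene and its antisense partner cannot be told apart there. CPB2-AS1 was itself listed at no more than 1.47 TPM. Of all runs of 30 bases in the transcripts, 17.3% of those of LCP1 and 10.6% of those of CORO1A also occur in other genes, mostly these partners, and the share was 0% to 5.39% in the other 8 members. RAC2 shares 0.15% with RAC1.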

How the data were processed

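RNA-Seq was analysed in 10 libraries, 2 for each of 5 groups taken from the sample labels. Per the study's methods, TruSeq libraries were sequenced on a MiSeq as single-end reads of 30 to 50 bases, trimmed with Trimmomatic and aligned with Bowtie to hg19. What the authors deposited is TPM for each Ensembl gene, with 2 decimals. The submitters' processing notes also list RSEM and mm10, and the role of each, the annotation release and the use of strand are not given in the sources used here. Depth cannot be read from TPM, so the counting error of each library is unknown.

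The 21543 genes that reached 1 TPM in 2 or more libraries were tested on log2(TPM + 1) with limma 3.58.1 in R 4.3.3, with 1 fit over all 10 libraries, eBayes with trend, two-sided tests and Benjamini-Hochberg adjustment over all genes tested. A gene passed at an adjusted p under 0.05. The pseudocount of 1 understates changes of low genes. Errors after ± are standard errors of the fit. The steps were tested on simulated data.

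The members and the lists were chosen with earlier results of these data known, and no result is independent support for that choice. Named were all 10 members, their relatives, the 3 further pathway genes with the largest rise and the 3 with the largest fall in WT among those that passed (1 gene is not reported here), the 5 genes closest to the members' mean z score, and GATA2, SPI1 and RUNX1. Alternatives were a pseudocount of 0.1, no filter, other sets of libraries in the fit, a replicate block, quantile normalization, TPM rescaled without mitochondrial and globin genes, no trend, and each library left out. Replicate numbers were not taken as pairs, since the replicate differences of the groups correlated at -0.0141 to 0.123. Among HEs and HPCs the replicate block also separates the libraries with the tagged column names.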

Additional observations from a re-analysis of the deposited data

Results flagged for a closer look

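HCLS1 stood out because the genotypes differed in opposite directions at the 2 stages. Both GATA2-/- HE libraries (11.6 and 12.8 TPM) were above both WT HE libraries (8.15 and 11.3 TPM), and both GATA2-/- HPC libraries (16.2 and 18.1 TPM) were below both WT HPC libraries (38.3 and 32.6 TPM). The difference of the genotype differences was -1.32 on the log2 scale, with a limma unadjusted p of 0.0848 and an adjusted p of 0.88 over 21543 genes, so the difference did not pass the test. The gap between the HE groups was small beside their spread (0.31 ± 0.48, SE). LCP1 also had fitted genotype differences of opposite sign, 0.06 in HEs and -0.43 in HPCs, with overlapping libraries at both stages.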

How the results depend on the processing

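Over 1240 alternative values of single members in 7 comparisons, 1138 kept direction and side of the threshold, 50 lost and 20 gained a pass, and 32 changed sign, all among differences that had not passed. The fit on only the libraries of a comparison left 0 members raised from HE to HPC in WT and 0 in GATA2-/-, and 0 genes of the whole table, against 715 and 1185 genes higher and 1419 and 1560 lower in the fit of all libraries. This fit rests on 4 libraries. In GATA2-/- the count of 5 was 2 with no filter on low values and 3 without the trend, and the cause was not tested. With a library left out, the count ranged from 2 to 6 in WT and from 2 to 5 in GATA2-/-, the median from 1.68 to 1.94 in WT, and, between genotypes, from -0.53 to -0.14 for HEs and from -0.98 to -0.39 for HPCs. The GATA2-/- median of 1.15 was 1.33 after quantile normalization and 1.31 after rescaling. Left-out ranges of members that changed sign were, between genotypes in HEs, -1.21 to 0.0894 for CORO1A, -0.44 to 0.18 for RAC2, -0.49 to 0.62 for LCP1 and -0.30 to 0.14 for LCP2, in HPCs -1.04 to 0.0268 for WAS, -1.05 to 0.20 for LCP1 and -0.48 to 0.20 for INPP5D, and from hESCs to HPCs -0.0739 to 1.13 for CORO1A and -0.21 to 1.53 for LCP1. For the difference of the HE to HPC rises between genotypes, 8 of 10 members changed sign, with ranges of -0.27 to 0.80 for WAS, -0.98 to 0.32 for CORO1A, -0.42 to 0.0282 for VAV1, -1.12 to 0.14 for LCP1, -0.28 to 0.16 for LCP2, -0.0592 to 0.39 for ARHGDIB, -0.12 to 0.55 for INPP5D and -0.19 to 0.36 for PTPN6, and LCP2 was also at 0.0404 after rescaling. With the replicate block, 6 members rose in WT and 5 in GATA2-/-, and the numbers are shared without being shown to pair samples. Counts from hESCs stayed at 5 to 6 and 7 to 8. The depth is unknown, and 2 libraries per group limit precision.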
